A study of Mus musculus with 20 samples.

Results

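The genes described here encode proteins of synaptic vesicles, of the machinery that fuses vesicles with membranes, and of the related sorting machinery of endosomes. They were taken by gene symbol: the synaptotagmins, synapsins, SV2 proteins, synaptophysin, synaptogyrins, synaptojanins, SNAREs and their regulators, the Rims, bassoon and piccolo scaffolds, the sorting nexins (Snx) and the vacuolar protein sorting (Vps) genes. Of 3731 genes with a listed m6A-associated site in mouse cerebellum, hippocampus or cortex, 66 carried such a symbol, and they held 562 of 25978 listed positions. RefSeq names 157 protein-coding genes that match the same symbols, so 66 of 157 had a site. The share over all RefSeq protein-coding genes was not computed, so this count is a description only.

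Poly(A) RNA was sequenced from whole cerebellum, whole hippocampus and whole cortex of mice that carried APOBEC1-YTH or APOBEC1-YTHmut. In APOBEC1-YTH a cytidine deaminase is fused to the YTH domain, which binds m6A, and methylation shows as C-to-U edits next to it. APOBEC1-YTHmut, in which that domain is mutated, served as the background. Each region had 4 APOBEC1-YTH libraries, from the same 4 animal numbers, and there were 3, 2 and 3 APOBEC1-YTHmut libraries from cerebellum, hippocampus and cortex. Mice of both genotypes were injected intraperitoneally with 20 mg/kg tamoxifen at 24 h intervals over 5 days and dissected 7 days later. The transgene is tamoxifen-inducible; its promoter, the cells that express it, and the strain and age of the mice were not given in the sources used here.

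The authors deposited 1 list of sites per region. Each listed site has a position in the mm10 build, a gene symbol and 1 value between 0 and 1, which is printed here as a percent and called the editing level. No list gives a read depth, a value per library or a value in APOBEC1-YTHmut mice, so the depth behind a level is unknown and no difference could be set against the spread between animals. All comparisons are therefore descriptions of 3 lists, without a test. The lowest level in any list was 1%. A listed site is no measure of expression, and an unlisted position may still be methylated. In bulk tissue, fewer cells of a type and less RNA per cell cannot be told apart. The regions could be checked against tissue markers only by their sites: 7 of 11 cerebellar marker genes had a site in cerebellum, 5 of 7 hippocampal markers in hippocampus and 5 of 7 cortical markers in cortex. In the other regions, cerebellar markers had a site in 2 genes in hippocampus and 3 in cortex, hippocampal markers in 1 gene each in cerebellum and cortex, and cortical markers in none in cerebellum and 1 in hippocampus.

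At a presynaptic terminal, transmitter-filled vesicles dock at the active zone, where scaffold proteins such as Rims, bassoon and piccolo hold them near calcium channels. Calcium binding to a synaptotagmin triggers fusion by the SNARE complex of a vesicular Vamp with syntaxin and Snap25, controlled by regulators such as Munc13 (Unc13a) and the complexins. The SNARE complex is then taken apart by Nsf with its Snap adaptors, and the membrane is recovered by clathrin-mediated endocytosis, which uses AP180 (Snap91) and synaptojanin. The m6A modification, a methylated adenosine inside messenger RNA, is concentrated near stop codons and in last exons, and proteins with a YTH domain bind it and affect how long transcripts last and how well they are translated.

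The base composition of the sites could be read directly only where a listed position fell in a RefSeq promoter window (GRCm38.p6). No site of the 66 genes did. Of the sites of other genes, 29 did, and in 29 of 29 the listed base on the transcribed strand was a cytidine preceded by an adenosine, a pair formed by 18.1% of all cytidines in these windows. Whether the authors' site calling required this pair was not given in the sources used here. Windows of 25 bases are shown for 3 of them, to show what a listed position looks like, with the A and the edited C in capitals and written 5′ to 3′ on the gene's strand. They lie at chr4:129120224-129120248 on the minus strand in Hpca, with a level of 11.6% in cortex, at chr1:179960873-179960897 on the plus strand in Cdc42bpa, with 6.82% in cortex, and at chr9:58488594-58488618 on the plus strand in Insyn1, with 1.39% in cerebellum.
Hpca: ctatgattatgACtgcctgtctact
Cdc42bpa: attttatggaaACtcaccctcaaga
Insyn1: aaggaatccggACtttccccaccgt

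Synaptic vesicle and fusion genes were marked in all 3 regions. A site was listed in 44 of the 66 genes in cerebellum, in 50 in hippocampus and in 56 in cortex. These are 66.7%, 75.8% and 84.8% of the 66 genes, with exact binomial 95% intervals of 54.0 to 77.8%, 63.6 to 85.5% and 73.9 to 92.5%. Among all 3731 listed genes the shares were 59.7% in cerebellum, 68.3% in hippocampus and 84.8% in cortex, each inside the interval of the 66 genes. In all 3 lists were 31 genes (47.0%, against 43.1% of all genes). A further 13 were listed in hippocampus and cortex, 7 in cerebellum and cortex, 2 in cerebellum and hippocampus, and 4, 4 and 5 in cerebellum, hippocampus or cortex alone.

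The sites numbered 247 in cerebellum, 318 in hippocampus and 424 in cortex, which was 2.17%, 2.36% and 2.37% of each list. Few genes held most of them: the 5 leading members had 184 of the 562 positions (32.7%) and the 10 leading members had 285 (50.7%). The share held by leading genes was not computed over all genes, so this is a description only. At least 10 sites were listed in 7 of 44 genes in cerebellum, 9 of 50 in hippocampus and 17 of 56 in cortex. Over all genes these numbers were 308 of 2228, 377 of 2547 and 526 of 3163. A single site was listed in 16 member genes in each region, beside 799, 897 and 1065 of all genes. The median level of the sites was 2.67% in cerebellum, 2.68% in hippocampus and 2.79% in cortex, beside 3.36%, 2.82% and 2.91% over all sites. A level of 10% or more was found at 14 cerebellar sites (5.67%, against 8.99% of all cerebellar sites), 16 hippocampal sites (5.03%, against 6.14%) and 31 cortical sites (7.31%, against 6.54%).

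**Figure D1:**
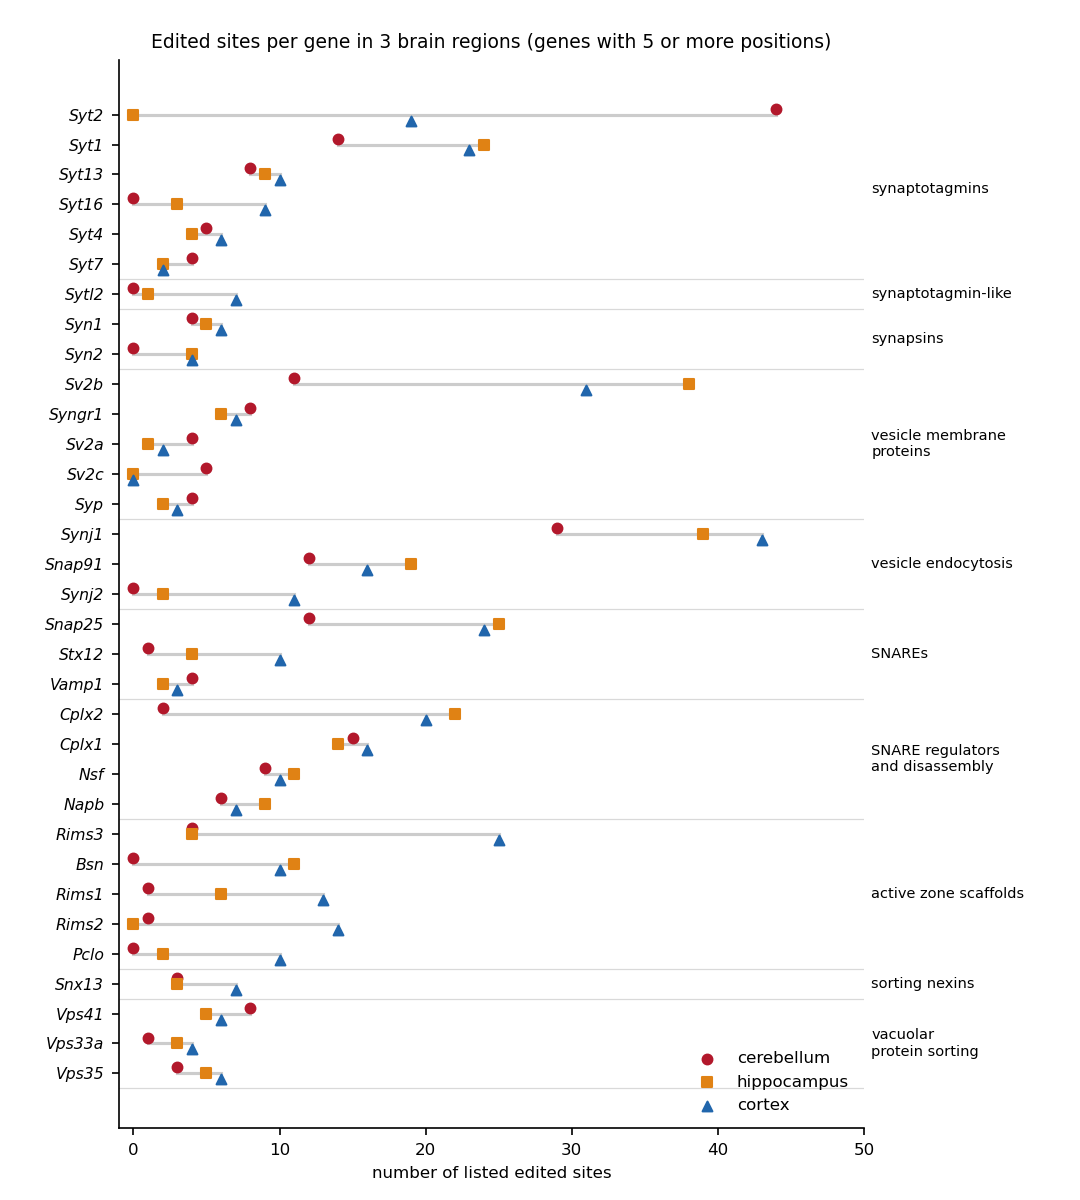
Number of listed sites per gene in cerebellum, hippocampus and cortex, 1 list per region, grouped by role in the vesicle cycle. Syt2 has 44 cerebellar, 0 hippocampal and 19 cortical sites, Cplx2 has 2, 22 and 20, and Rims3 has 4, 4 and 25.

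Of 562 positions, 131 (23.3%) were in all 3 lists, against 19.0% over all genes. Positions listed in hippocampus and cortex alone numbered 116 (20.6%, against 17.1%), those of cerebellum and cortex 43, and those of cerebellum and hippocampus 6. Of the 247 cerebellar sites, 174 were also cortical, a share of 70.4% (95% interval 64.3 to 76.1%) against 58.2% over all cerebellar sites. Of the 318 hippocampal sites, 247 were also cortical (77.7%, interval 72.7 to 82.1%, against 69.7%). Of the 247 cerebellar sites, 137 were also hippocampal (55.5%, against 49.9%). Sites of 1 gene share its transcript, and these intervals cover the counting of sites only.

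The synaptotagmins, a family that includes the calcium sensors of release, held the most positions of any role. Their 9 genes had 79 sites in cerebellum, 45 in hippocampus and 72 in cortex, with median levels of 2.49%, 2.33% and 2.78%. Syt2, a fast calcium sensor of synchronous release, had 44 cerebellar sites, the most of any member in any region, no hippocampal site and 19 cortical sites. All 19 cortical positions were also cerebellar. At these 19 sites Syt2 averaged 7.57% in cerebellum and 14.6% in cortex, with a median log2 ratio of -0.96, and 17 of the 19 were lower in cerebellum. The most edited of them, chr1:134747752, was at 17.9% in cerebellum and 57.1% in cortex, the highest level of any member. A pair of Syt2 positions went the other way, one of which was at 13.99% in cerebellum and 10% in cortex. The lowest listed Syt2 level was 1.04% in cerebellum and 5.41% in cortex. The Syt2 ratio covers only positions listed in both regions. Whether positions with lower cortical levels went unlisted, which would leave mostly high cortical values in it, was not tested. The 25 positions listed in cerebellum alone had levels of 1.04 to 16.7%.

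Syt1, the main calcium sensor of fast release in forebrain neurons, had 14 sites in cerebellum, 24 in hippocampus and 23 in cortex, and all 14 cerebellar positions were in all 3 lists. The levels were low: the highest was 5.35% in cerebellum, 7.30% in hippocampus and 9.09% in cortex. At the 14 sites Syt1 averaged 1.93% in cerebellum, 3.38% in hippocampus and 3.16% in cortex. Levels were lower in cerebellum than in cortex at 12 of 14 sites (median log2 ratio -0.43) and lower than in hippocampus at 13 of 14 (median log2 ratio -0.63). The widest gap lay 2250 nt before the 3′ end, where the level was 1.87% in cerebellum, 7.30% in hippocampus and 9.09% in cortex. At the most edited cerebellar position, 1534 nt before the end, the 3 regions were within a narrow range, with 5.35%, 5.72% and 4.95%.

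The other synaptotagmins carried fewer sites. Syt13, which lacks the residues that bind calcium, had 8 cerebellar, 9 hippocampal and 10 cortical sites, and its leading position was at 5.04% in cerebellum, 10.9% in hippocampus and 11.9% in cortex. Syt4, a synaptotagmin linked to neuropeptide vesicles, had 5, 4 and 6 sites, all under 5%. Syt7, a slow, high-affinity calcium sensor, had 4 sites in cerebellum and 2 each in hippocampus and cortex. Syt16 had no cerebellar site, 3 hippocampal and 9 cortical ones. Syt17 also had no cerebellar site and 2 in each of the other regions, Syt11 had 3, 1 and 1, and Syt12 had a single cerebellar site at 3.60%. The synaptotagmin-like Rab27 effector Sytl2 had no cerebellar site, 1 hippocampal and 7 cortical sites, 1 of which was at 16.7% in hippocampus and 22.02% in cortex.

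The synapsins, phosphoproteins that tether vesicles in the reserve pool, differed between their members in the lists. Syn1 had 4 cerebellar, 5 hippocampal and 6 cortical sites. Its leading position was nearly level across the regions, at 9.20% in cerebellum, 10.02% in hippocampus and 10.15% in cortex, 201 nt before the 3′ end. The second, 310 nt before the end, was at 5.72%, 7.97% and 6.90%. Syn2 was not listed in cerebellum and had 4 sites in hippocampus and 4 in cortex, of which 1 reached 6.60% in hippocampus and 7.76% in cortex.

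Among vesicle membrane proteins, the 3 SV2 glycoproteins differed in how their sites were spread over the regions. Sv2b had 11 cerebellar, 38 hippocampal and 31 cortical sites, the most of any member in hippocampus after Synj1. All 11 cerebellar Sv2b positions were lower than in hippocampus, with means of 4.35% in cerebellum and 9.91% in hippocampus and a median log2 ratio of -0.99. Against cortex, where the same 11 averaged 7.76%, 8 were lower in cerebellum (median log2 ratio -0.67). The leading Sv2b position was at 8.62% in cerebellum, 25.1% in hippocampus and 17.1% in cortex, and another at 3.12%, 14.9% and 13.2%. Over the 30 Sv2b positions shared by hippocampus and cortex, the median log2 ratio of hippocampus over cortex was 0.26. Sv2c, in contrast, was listed in cerebellum alone, with 5 sites from 3.77% to 50%. Sv2a, the SV2 form found most widely in the brain, had 4 sites in cerebellum, 1 in hippocampus and 2 in cortex, none above 3.74%. In Sv2a and Sv2c, 4 listed positions each lay outside the RefSeq span of the gene, the only 8 such positions of the 562, so their assignment to these genes rests on the authors' symbols.

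Synaptogyrin 1 (Syngr1), an abundant vesicle membrane protein, had 8, 6 and 7 sites in cerebellum, hippocampus and cortex. One of them, chr15:80091441, was at 50.2% in cerebellum, 50.7% in hippocampus and 43.3% in cortex, and lay 28060 nt from the 3′ end and 24661 nt from the nearest other site. Every other Syngr1 level was under 5%. At all 5 Syngr1 positions shared by cerebellum and cortex the level was higher in cerebellum (median log2 ratio 0.22), and at all 6 shared by hippocampus and cortex it was higher in hippocampus (0.37). Synaptophysin (Syp), an abundant vesicle protein, had 4, 2 and 3 sites, all under 3%. Syngr3 had 1 site in cerebellum and 1 in hippocampus, at different positions.

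Of the endocytic genes, Synj1 had the most sites of any member, with 29 in cerebellum, 39 in hippocampus and 43 in cortex. Synaptojanin 1 is the lipid phosphatase that strips the clathrin coat from endocytosed vesicles. Its sites lay within 2728 nt of the 3′ end, and the directions between regions were mixed along it. At 27 positions shared by cerebellum and cortex, 15 were higher and 12 lower in cerebellum, with means of 3.42% and 3.01% and a median log2 ratio of 0.17. Of the 4 that were at least 2-fold higher in cerebellum, a pair lay 1871 and 1893 nt before the 3′ end. The first of these was at 8.33% in cerebellum, 3.98% in hippocampus and 1.61% in cortex, and the second at 6.73%, 2.94% and 2.41%. The other 2 lay 2163 and 2204 nt before the end, with the farther one at 6.02% in cerebellum, 2.11% in hippocampus and 1.01% in cortex. Of the 3 that were at least 2-fold lower, 2 lay next to each other, 2505 and 2541 nt before the end, at 2.27% and 1.67% in cerebellum, 7.14% and 4.32% in hippocampus, and 6.99% and 4.46% in cortex. Higher and lower sites stood in the same stretch of 1 gene.

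Snap91, the clathrin assembly protein AP180, had 12 cerebellar, 19 hippocampal and 16 cortical sites, and all 12 cerebellar positions were in the 3 lists. They averaged 3.11% in cerebellum, 5.29% in hippocampus and 4.79% in cortex. Against cortex, 9 of 12 were lower in cerebellum (median log2 ratio -0.70), and against hippocampus 8 of 12 (-0.79). The leading Snap91 position was at 9.34% in cerebellum, 19.5% in hippocampus and 15.4% in cortex, and the next at 6.67%, 12.02% and 11.85%. Synj2 had no cerebellar site, 2 hippocampal and 11 cortical sites. They began 16425 nt from the 3′ end of the RefSeq gene, unlike those of Synj1, and 1 of them, chr17:6039335, was at 36.4% in cortex. Synj2bp, which binds synaptojanin 2 at the mitochondrial outer membrane and belongs here by its symbol, had 1 shared position, at 6.67% in cerebellum, 19.2% in hippocampus and 19.4% in cortex.

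The SNAREs had 19 cerebellar, 36 hippocampal and 43 cortical sites in 9 genes. Snap25, the plasma membrane SNARE of neurons, held 12, 25 and 24 of them. They formed a dense block near the 3′ end, from 50 to 1002 nt before it. All 12 cerebellar Snap25 positions were also cortical, and all 12 were lower in cerebellum, with means of 2.60% and 4.35% and a median log2 ratio of -0.66. Against hippocampus, where these sites averaged 3.86%, 10 of 12 were lower in cerebellum (median log2 ratio -0.53). The leading position was at 6.08% in cerebellum, 9.84% in hippocampus and 10.7% in cortex. Between hippocampus and cortex, 19 of 24 Snap25 sites were lower in hippocampus, but the median log2 ratio was only -0.20.

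Syntaxin 12 (Stx12), an endosomal SNARE, had 1 site in cerebellum, 4 in hippocampus and 10 in cortex. Its 1 site of all 3 regions was at 4.41% in cerebellum, 12.3% in hippocampus and 4.97% in cortex, and over its 4 sites shared by hippocampus and cortex the median log2 ratio of hippocampus over cortex was 0.93. Stx1a, a syntaxin of the plasma membrane, had a single cortical site at 2.56%. Stx6 had 1 site, at 8.03% in hippocampus and 9.71% in cortex. Vamp1, a vesicular SNARE common in brainstem, spinal cord and cerebellum, had 4 cerebellar, 2 hippocampal and 3 cortical sites, of which 1 was at 6.12%, 5.15% and 2.46%. Vamp4 had 1, 1 and 2 sites, Stx5a a single hippocampal and Vti1b a single cortical site.

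The regulators and disassembly factors of SNAREs had 39 sites in cerebellum, 70 in hippocampus and 69 in cortex. The complexins, small proteins that clamp and promote SNARE fusion, differed from each other. Cplx1 was evenly listed, with 15, 14 and 16 sites, 13 of its 17 positions in all 3 lists. At 14 positions shared with cortex, Cplx1 averaged 4.47% in cerebellum and 3.34% in cortex, and 12 were higher in cerebellum (median log2 ratio 0.26). Against hippocampus, 10 of 14 were higher in cerebellum (0.42). The leading Cplx1 position, chr5:108518874, was at 22.6% in cerebellum, 7.49% in hippocampus and 13.1% in cortex. Cplx2 had 2 cerebellar sites beside 22 in hippocampus and 20 in cortex. Those 2 were at 1.04% and 1.14% in cerebellum, at 7.44% and 5.43% in hippocampus, and at 6.96% and 7.96% in cortex. Between hippocampus and cortex, the 19 shared Cplx2 sites averaged 4.17% in each, with a median log2 ratio of 0.03. Both cerebellar values were close to the lowest level that any list holds.

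Nsf, the ATPase that separates SNARE complexes, had 9, 11 and 10 sites in cerebellum, hippocampus and cortex. Its 6 sites shared by cerebellum and hippocampus averaged 4.05% in cerebellum and 3.38% in hippocampus, with a median log2 ratio of 0.71, and the 5 shared with cortex averaged 4.42% in cerebellum and 3.44% in cortex (0.36). Napb, the neuronal Snap adaptor of Nsf, had 6, 9 and 7 sites, with one position at 1.47%, 3% and 3.17% and another at 5.94%, 3.58% and 2.85%, so that its levels differed in both directions. Its homolog Napa had 2, 3 and 3 sites, and both cerebellar ones were higher than in cortex, at 3.5% and 2.96% in cerebellum and 2.13% and 1.71% in cortex. Stxbp5 and Stxbp5l, the tomosyns that inhibit SNARE assembly, were not listed in cerebellum and had 1 and 2 sites in hippocampus and 1 each in cortex. Unc13a had 1, 1 and 2 sites, and its position chr8:71653425 was at 47.2% in cerebellum and 40.1% in cortex. This position, 29300 nt from the 3′ end, had no other site within 24375 nt.

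The active zone scaffolds had 6 sites in cerebellum, 23 in hippocampus and 73 in cortex. All 6 cerebellar sites were also cortical, and all 6 were lower in cerebellum, with a median log2 ratio of -0.81. Rims3, a short Rim protein, had 4, 4 and 25 sites. Its 4 positions shared by cerebellum and cortex averaged 3.26% in cerebellum and 7.26% in cortex, and 1 of them was at 1.90% in cerebellum and 11.1% in cortex. Rims2, a long Rim scaffold, had 1 cerebellar site, none in hippocampus and 14 in cortex. The cerebellar one was at 2.25% in cerebellum and 8.16% in cortex, and the other 13 cortical levels ran from 2.17% to 6.25%. Rims1, the major Rim scaffold, had 1, 6 and 13 sites, and its 4 positions shared by hippocampus and cortex were all lower in hippocampus (median log2 ratio -0.38). Rims4 had 1 cortical site, and no Rim-binding protein gene (Rimbp) was listed.

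Bassoon (Bsn) and piccolo (Pclo), the giant scaffolds of the active zone, were not listed in cerebellum. Bsn had 11 hippocampal and 10 cortical sites, and at 5 of the 6 that they shared the level was lower in hippocampus (median log2 ratio -0.58). The widest Bsn gap was 1.08% in hippocampus and 3.33% in cortex. Pclo had 2 hippocampal and 10 cortical sites, and the 2 shared ones were at 2.99% and 2.96% in hippocampus and 2.67% and 4.42% in cortex. The sites of both genes were spread along the gene, from 589 to 18319 nt before the 3′ end in Bsn and up to 341371 nt before it in Pclo, introns included.

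**Figure D2:**
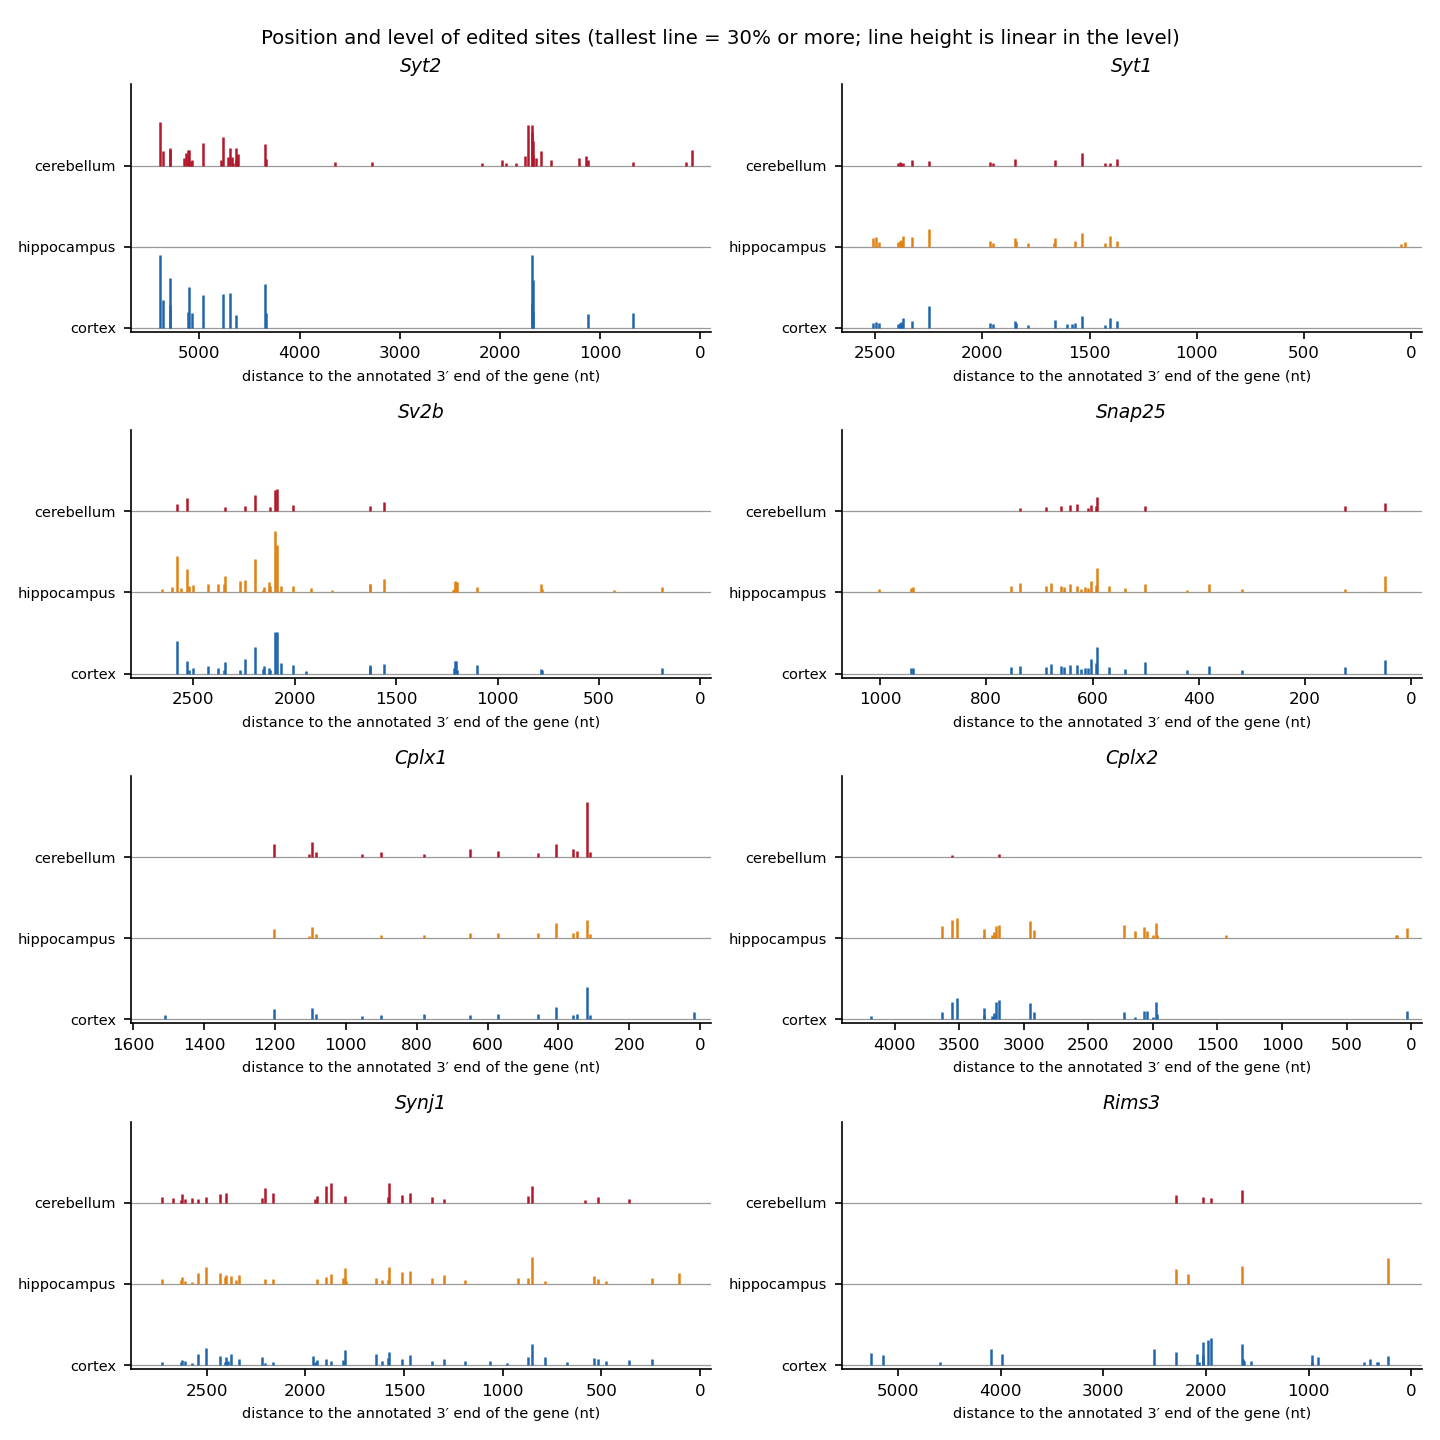
Listed sites of 8 genes along the last 6000 nt before the annotated 3′ end, with 1 row per region and line height for the editing level (the tallest line stands for 30% or more). Each gene has its own axis length. Most Syt2 sites lie in 2 blocks, in the same places in cerebellum and cortex, with none in hippocampus, Snap25 sites lie between 50 and 1002 nt, and Cplx2 has 2 low cerebellar lines beside 22 in hippocampus and 20 in cortex.

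The sorting nexins, which bind endosomal lipids and shape tubules, and the Vps proteins had fewer sites per gene. The 7 sorting nexins had 9 sites in cerebellum, 5 in hippocampus and 11 in cortex. Snx13 led with 3, 3 and 7 sites; 1 of them was at 8.33% in cerebellum, 3.85% in hippocampus and 3.28% in cortex, another at 13.5% in hippocampus and 6.94% in cortex, and one more, at 12.5%, was listed in cerebellum alone. Snx15 had 1 site, at 10% in cerebellum and 9.09% in cortex. Snx19 had 2 sites in cerebellum and 2 in cortex, Snx27 had 1 in each of these, Snx1 had 1 in cerebellum and 1 in hippocampus, and Snx10 and Snx12 had a single site in cerebellum and in hippocampus.

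The 13 Vps genes had 16 sites in cerebellum, 20 in hippocampus and 24 in cortex, with median levels of 3.71%, 2.99% and 3.52%. Vps41, a subunit of the HOPS tethering complex of late endosomes and lysosomes, had 8, 5 and 6 of them. Its 6 sites shared with cortex averaged 8.09% in cerebellum and 5.30% in cortex (median log2 ratio 0.74), and its 4 shared with hippocampus were all higher in cerebellum (0.82). The leading Vps41 position was at 14.9% in cerebellum, 11.7% in hippocampus and 15.2% in cortex, while the one 72 nt before the 3′ end was at 11.1%, 2.50% and 4.42%. Vps35, the core of the retromer that returns cargo from endosomes, had 3, 5 and 6 sites, of which 1 was at 4.41%, 7.95% and 4.21%. Its retromer partners Vps29 and Vps26a had no cerebellar site, 3 and 1 in hippocampus, and 1 and 2 in cortex, while Vps26b had 1 in cerebellum alone. Vps33a, also of HOPS, had 1, 3 and 4 sites. Vps39 had 2, 0 and 1, Vps4a 1, 0 and 1, and Vps13c 0, 1 and 1, and Vps11, Vps53, Vps13b and Vps50 had a single site each, the first 2 in hippocampus and the others in cortex.

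Over the 174 sites of 33 genes shared by cerebellum and cortex, the median log2 ratio of cerebellum over cortex was -0.23, beside 0.06 over all 6627 shared sites. At least 2-fold lower in cerebellum were 32 of them (18.4%, against 12% of all shared sites), and at least 2-fold higher were 12 (6.90%, against 15.1%). Of the 32 lower sites, 9 were in Syt2, 4 in Syt1, 3 each in Synj1, Snap91 and Sv2b, and 2 each in Snap25 and Cplx2. The lowest listed cortical level of Syt2 was 5.41%, so its ratios cover no lower cortical value. Without Syt2 the median was -0.12, with 23 of 155 sites lower (14.8%) and 12 higher (7.74%). With 1 value a gene, so that Syt2 and Synj1 count as much as the others, the median was -0.08 over 33 genes and 0.10 over all 1636 genes. By role, synaptotagmins were lower in cerebellum at 35 of 43 shared sites and SNAREs at 14 of 16, while regulators and disassembly factors were higher at 23 of 32. Over all 6627 shared sites, 3488 were higher and 3123 lower in cerebellum. The role counts rest mostly on single genes: Snap25 gave 12 of the 14 lower SNARE sites, Syt2 and Syt1 gave 17 and 12 of the 35 lower synaptotagmin sites, and Cplx1 gave 12 of the 23 higher regulator sites.

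**Figure D3:**
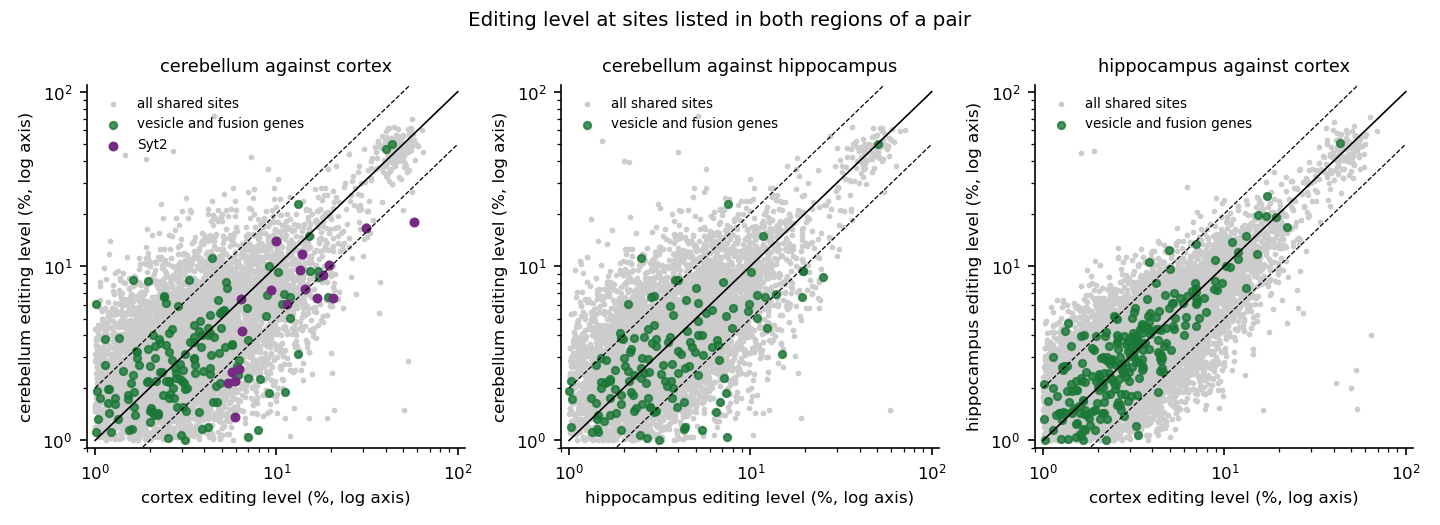
Editing level of each member site listed in both regions of a pair, in percent on log axes, for cerebellum over cortex (174 sites), cerebellum over hippocampus (137 sites) and hippocampus over cortex (247 sites). More points lie at least 2-fold below than above equal levels in both cerebellar pairs (32 against 12 and 25 against 9), and the hippocampal and cortical levels lie closer together.

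Cerebellum stood in a similar relation to hippocampus, with the cerebellar values common to both comparisons. Over 137 shared sites of 26 genes the median log2 ratio of cerebellum over hippocampus was -0.26, beside 0.04 over all 5688. At least 2-fold lower were 25 (18.2%, against 11.4%), and at least 2-fold higher were 9 (6.57%, against 15.2%). With 1 value a gene the median was -0.19 over the members and 0.10 over all genes. Syt2 has no hippocampal site and so is not in this comparison.

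Hippocampus and cortex were closer, as they were over all sites. Over 247 shared sites of 37 genes the median log2 ratio of hippocampus over cortex was 0.03, beside -0.02 over all 9379, with 15 sites at least 2-fold higher in hippocampus (6.07%, against 7.37%) and 5 at least 2-fold lower (2.02%, against 8.17%). The 5 lower sites are 1 each in 5 roles. Among members with 3 or more shared sites, 20 could be compared between these regions, 14 with a median higher in hippocampus and 6 lower. In the 17 compared between cerebellum and cortex, 7 had a median higher in cerebellum and 10 lower, and in the 13 compared between cerebellum and hippocampus the numbers were 5 and 8. Over all genes with 3 or more shared sites, 50.3% of 898 had a median higher in hippocampus than in cortex, 55.9% of 653 one higher in cerebellum than in cortex, and 54.7% of 569 one higher in cerebellum than in hippocampus. No member with 3 or more shared sites had a median 2-fold apart in any pair, but several were close to it. Over all genes with as many shared sites, 11.0% were at least 2-fold apart for cerebellum over cortex and 10.7% for cerebellum over hippocampus. For hippocampus over cortex the share was 1.34%. Merging sites within 10 nt kept the highest level of each region, so a merged ratio can compare different positions. In Rims3, a cortical 9.42% was so set against 2.51% in cerebellum from a neighbouring position, which was itself at 3.92% in cortex. With this merging, the median for cerebellum over cortex was -1.33 in Rims3 and -1.04 in Syt2, and that for cerebellum over hippocampus was -1.05 in Sv2b. With levels scaled to the same median over all shared sites, Syt2 (-1.04) and Sv2b (-1.05) were past 2-fold in the same pairs, and Sv2b also with sites under 5% left out (-1.02). The shares over all genes were not computed at these settings.

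**Figure D4:**
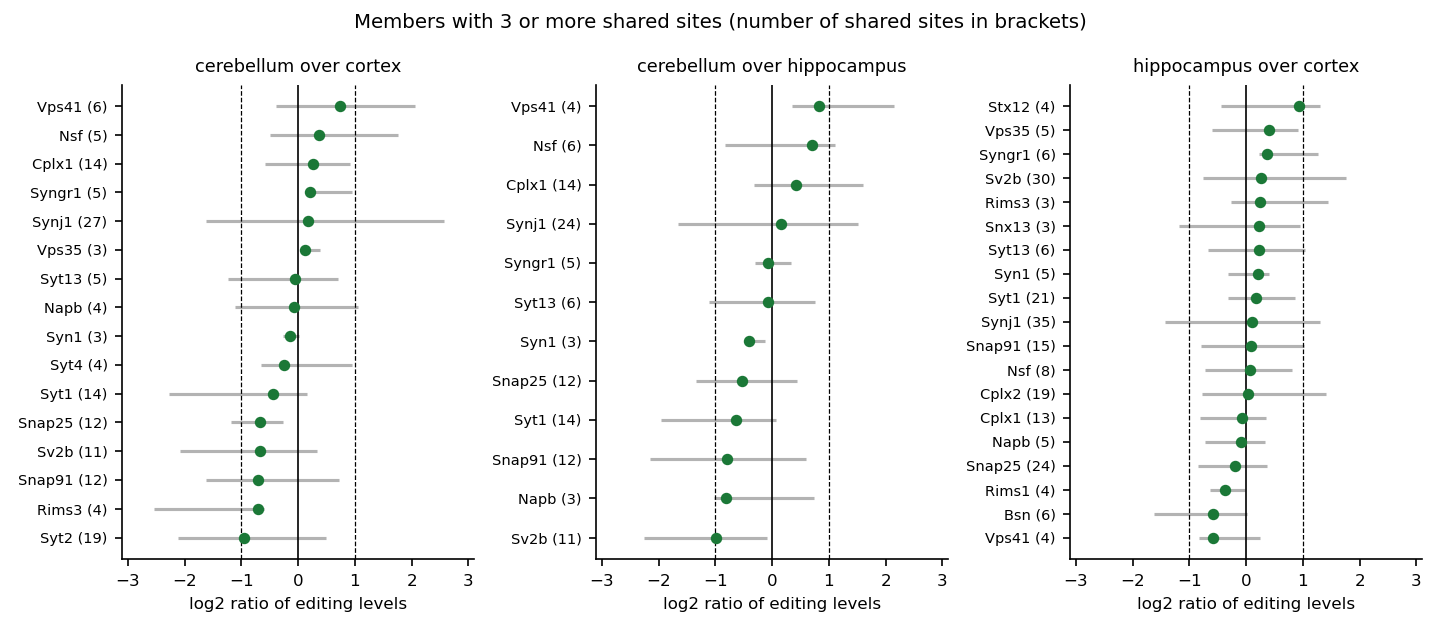
Median log2 ratio of the editing level per gene for members with 3 or more shared sites, as a point, on a line that runs from the lowest to the highest of its sites, for the 3 pairs of regions. Syt2, Rims3, Snap91, Sv2b and Snap25 lie lowest in cerebellum over cortex (-0.96 to -0.66), and Vps41 and Nsf highest (0.74 and 0.36). The Syt2 point covers only positions listed in cortex, all at 5.41% or more there.

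Numbers of sites per gene were compared in the 34 members with 5 or more positions, after adding 1 to each number. In cerebellum relative to cortex, 15 of 34 had at least 2-fold fewer sites (44.1%, against 43.9% of 1489 genes with as many positions) and 2, Syt2 and Sv2c, at least 2-fold more (5.88%, against 9.94%). Relative to hippocampus, 12 had fewer in cerebellum (35.3%, against 33.8%) and 4 had more (11.8%, against 16.3%). In hippocampus relative to cortex, 10 had fewer (29.4%, against 23%) and none had more (against 3.22%). These shares are near those of all genes and so are no result about the vesicle genes. The genes with at least 3 sites in 1 region and none in another were Syt2, missing in hippocampus, Sv2c, missing in hippocampus and cortex, Rims2, missing in hippocampus, and Bsn, Pclo, Syn2, Syt16, Synj2, Sytl2 and Vps29, missing in cerebellum. The share of all genes that meet this rule was not computed, so the names are a description and no result about the vesicle genes.

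Most sites lay toward the 3′ ends. Of the 554 positions inside a RefSeq gene span, 88.8% were within 5 kb of the 3′ end, against 87.0% over all genes, with a median genomic distance of 1598.5 nt (1519.5 nt over all genes). By role the median distance was 573.5 nt in Vps genes, 745 nt in SNAREs, 1812.5 nt in synaptotagmins and 2364 nt in active zone scaffolds. Close neighbours, within 50 nt, were listed for 328 of the 562 positions (58.4%, against 59.3%), and for 74.4% of endocytic gene sites and 35.3% of sorting nexin sites. Which exon or transcript part holds a site was not analysed here. Sites that more regions shared had higher levels: in hippocampus the median was 1.78% for sites of hippocampus alone, 2.52% for those of 2 regions and 3.31% for those of all 3, in cortex 2.59%, 2.71% and 3.1%, and in cerebellum 2.41%, 2.72% and 2.73%. Over all genes the medians had the same order in each region, for example 1.95%, 2.71% and 3.92% in hippocampus. No list holds a level under 1%, so a site near that level can go unlisted in another region. How far this sets the order was not tested.

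Levels of 35% or more were found at 5 member positions (0.890%, against 1.09% of all positions), 1 each in Syt2, Syngr1, Sv2c, Unc13a and Synj2. The Syt2 and Synj2 positions had another site within 50 nt, while those of Syngr1, Unc13a and Sv2c lay at least 4870 nt from the next. No APOBEC1-YTHmut value stands beside them in the lists, and whether they also carry a C-to-U difference there was not tested.

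Other genes of the vesicle cycle outside the symbols used here were counted in the same way. Of 98 genes for transmitter transporters, endocytic adaptors, Rab3 and Rab27 with their effectors, active zone partners, other vesicle proteins and Golgi SNARE partners, 57 had a site. There were 223 sites in 39 genes in cerebellum, 261 in 43 in hippocampus and 297 in 50 in cortex. At their sites shared by cerebellum and cortex the median log2 ratio was 0.03, with 12 at least 2-fold higher and 11 at least 2-fold lower in cerebellum. Their 98 sites shared by cerebellum and hippocampus had a median of -0.02, with 8 higher and 10 lower. Their 170 sites shared by hippocampus and cortex had a median of 0.11, with 18 higher and 9 lower. Over all shared sites, 15.1% were at least 2-fold higher and 12% at least 2-fold lower for cerebellum over cortex. The shares over all sites were 15.2% and 11.4% for cerebellum over hippocampus, and 7.37% and 8.17% for hippocampus over cortex. Such shares were not computed for the other vesicle cycle genes, so their counts are a description only. Among the transporters that fill vesicles, the glutamate transporter genes Slc17a6 and Slc17a7 had 9 and 1 sites in cerebellum, 0 and 9 in hippocampus and 1 and 7 in cortex, and the GABA and glycine transporter gene Slc32a1 had 11, 2 and 5. Doc2b, a calcium sensor of spontaneous release, had 23, 8 and 0 sites, and the vesicle GTPase gene Rab3c had 15, 48 and 42. Picalm, the paralog of Snap91, had 2, 2 and 4. Erc2, an active zone partner of Rims, had 0, 14 and 8, which like Bsn and Pclo left cerebellum without a site. Of the 9 active zone partners with a site, however, 4 were listed in cerebellum. Among them were Cacnb4, with 12, 0 and 20 sites, and Cacna1a, with 6, 4 and 7.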

How the data were processed

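The 20 poly(A) libraries, from cerebellum, hippocampus and cortex of APOBEC1-YTH and APOBEC1-YTHmut mice, used 900 ng of total RNA and a directional kit, per the labels' protocols. The submitters' processing notes name STAR 2.7.5 and the build mm10. How sites were called, at what depth and threshold, and how libraries were combined was not given in the sources used here. The authors deposited, for each region, 1 list of 6 columns without a header. Each value is a fraction of at most 1, as the authors deposited it with mutant libraries as background per the series' design, read here as the share of edited reads, an assumption, and printed as percent. Depth is unknown, and the lists give no replicate, so no test was run.

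Genes were taken by symbol and matched to the RefSeq table of GRCm38.p6, the assembly of mm10, for 66 of 66. Sites at the same position and strand were shared, and called when levels differed at least 2-fold. Distances to the 3′ end are genomic. Shares have exact binomial (Clopper-Pearson) 95% intervals. Every member may be named; in full were given the 4 members of each role with most sites, the 6 highest and 6 lowest median ratios per pair among members with 3 or more shared sites, the 10 highest sites per region, sites at 35% or more, and members with 3 or more sites in 1 region and none in another. The members and lists were chosen with earlier results of these data known, and the comparison of site numbers and the values without Syt2 were added after the data were seen. Alternatives changed the level minimum, merging of close sites, weight per gene, fold, scaling and the members. The scripts (Python 3.11.15, pandas 2.3.3, numpy 2.4.6, scipy 1.17.1, matplotlib 3.10.9) were tested on simulated data. Values of 2 members are counted in the totals and are not reported here singly.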

Additional observations from a re-analysis of the deposited data

How the results depend on the processing

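The counts, levels and ratios were recomputed with other settings, in the order cerebellum, hippocampus and cortex. With sites under 5% left out, 20, 26 and 32 genes and 56, 57 and 87 sites were left, with median levels of 7.09%, 7.02% and 7.81%; 60.7% of cerebellar sites were cortical, 37.5% of cerebellar sites hippocampal and 68.4% of hippocampal sites cortical. The median log2 ratio was then -0.59 for cerebellum over cortex and -0.50 for cerebellum over hippocampus. Of 34 sites shared by cerebellum and cortex, 0 were 2-fold higher and 6 were 2-fold lower in cerebellum. Of 39 sites shared by hippocampus and cortex, 0 were 2-fold higher or lower. Cplx2 had a median of -0.15 for hippocampus over cortex. Shares over all shared sites were not computed at this minimum or at 10%, so these counts cannot be read as particular to the members. With sites under 10% left out, 8, 12 and 14 genes and 14, 16 and 31 sites were left, with medians of 15.7%, 13.6% and 15.4%; 64.3% of cerebellar sites were cortical and 14.3% hippocampal, and the median log2 ratio was -0.027 for cerebellum over cortex and 0.17 for cerebellum over hippocampus, over 9 and 2 shared sites, so that the turned sign is the median of 2 values, with 1 of the 9 sites (11.1%) 2-fold lower than in cortex and 0% past 2-fold otherwise. With 1 value a gene, cerebellum over cortex had a median of -0.079. Of the members, 3.03% were 2-fold higher and 12.1% lower, against 10.7% and 6.42% of all genes. No member was 2-fold higher in hippocampus than in cortex, against 3.84% of all genes. At 1.5-fold the shares higher and lower were 17.2% and 35.1% for cerebellum over cortex, 16.1% and 36.5% for cerebellum over hippocampus, and 13.8% and 11.3% for hippocampus over cortex. The 1.5-fold shares over all shared sites were not computed, so these cannot be read as particular to the members. Genes with at least 2 sites numbered 28 in cerebellum. Without Syt2, chosen after the data were seen, 76.4% of cerebellar sites were cortical and 67.5% hippocampal, and cerebellum over cortex had a median of -0.12. Merging sites within 10 nt moved Rims3 to -1.33 for cerebellum over cortex, past 2-fold, and turned the hippocampus over cortex median of Snx13 (-0.35). The highest level of each region was kept in merging, so these ratios can compare different positions. Leaving out sites at 35% or more, or the Snx and Vps genes, moved none of the summary values beyond its limit. No paired analysis was possible because the lists hold no value per library, and no library could be left out for the same reason. Depth, which is not in the lists, limits every level.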
